A study of Mus musculus with 2 samples.

Results

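Slc40a1, Alas2, Hemgn and Slc4a1 are genes of iron export, heme synthesis and the red cell lineage, and they were followed here in preparations from mouse testis. All non-control probes that the array files name for these 4 genes were taken, which gave 5 probes of 15208, and the 4 genes were among 9441 genes compared. The genes were chosen by their log2 ratios between these same 2 arrays, so their ratios are a description and carry no test. Adult male Swiss mice, 3 months old, gave the preparations, which the labels call isolated Sertoli cells, the supporting cells of the tubule in which germ cells mature. They were held back on a strainer after enzyme digestion of the testes and were not cultured. The control mice were untreated, and the treated mice had received busulphan, an alkylating drug that depletes germ cells, at 25 mg/kg 1 month before, and the series asks how Sertoli cell expression changes after the drug. Each group is 1 preparation on 1 single-colour array, so no difference has a replicate check, and how many mice were pooled is not given in the sources used here. Preparation, labelling and array cannot be told apart from treatment. All 20 Sertoli markers compared were well above background on both arrays, and so were all 20 spermatid markers, 9 of them saturated in control, so the preparations also held germ cell RNA.

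Iron leaves cells through ferroportin, the product of Slc40a1, which is abundant in macrophages that recycle iron from old red cells. Heme is made from glycine and succinyl-CoA, and the first step is run by Alas1 in most cells and by the X-linked enzyme Alas2 in red cell precursors. Hemgn encodes hemogen, a nuclear protein of blood progenitors that is also known from germ cells of the testis, and Slc4a1 encodes band 3, the anion exchanger of the red cell membrane. In the testis, Sertoli cells pass iron to germ cells and secrete transferrin.

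The probes are 60 bases long, and the first 30 bases of each are shown because the directions of the 4 genes rest on these oligonucleotides alone. Positions are those of the files on mouse build mm9, and whether they fall in coding or untranslated sequence is not given there.
Slc40a1, NM_016917, chr1:45965255-45965314, minus strand: ttctagagcaacaatagtcacaaaagttcc
Alas2, NM_009653, chrX:147004993-147005052, plus strand: tttgggaacatgggaccccaatatgttacc
Hemgn, NM_053149, brighter probe, chr4:46416858-46416917, minus strand: ttttaggctgcttgtgaagtcaaagccaat
Hemgn, NM_053149, dimmer probe, chr4:46406995-46407054, minus strand: tgtaacaacatcagaattttattcgagctt
Slc4a1, NM_011403, chr11:102210256-102210315, minus strand: cccacaaggtctaagaaaagcgtttgccat
The Hemgn probes start 9863 bases apart, so they read different stretches of the transcript.

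The array scanner reports a background-corrected processed signal per spot with a software error for that spot, the only error these files hold. It has no fixed unit, and signals of different probes cannot be compared with each other. To compare arrays, log2 signals were taken relative to each array's 75th percentile, a signal of 1046 for control and 905 for busulphan, and a log2 ratio is busulphan minus control. Genes were called higher or lower at 2-fold, a log2 ratio of 1 either way. By this rule 31.3% of all genes compared were higher and 29.5% lower. Of the 4 chosen genes, Slc40a1 and Alas2 were higher and Hemgn and Slc4a1 lower, a count the choice itself fixes. A spot that the scanner software does not score as well above background gives only a bound, written as "at least".

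Slc40a1 had a processed signal of 27.9 ± 3.23 (software error) on the control array and 900 ± 90.0 on the busulphan array. It was low in control and high after busulphan, 37.3-fold higher (log2 5.22, software error 0.22), with both spots well above background. Only 9 of the 9441 genes had a higher ratio, bounds included. No second probe on the array reads this gene. With normexp background correction, which adds an offset to every spot and so shrinks the ratios of dim ones, the log2 ratio was 3.72.

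Alas2 had a signal of 345 ± 34.5 in control and 1754 ± 175 after busulphan. It was clearly measured on both arrays and was 5.88-fold higher after the drug (log2 2.56, software error 0.20). Over the 8 other ways of processing, not all of which could change it, its log2 ratio lay between 1.67 and 2.60. It stayed past 2-fold in each.

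Hemgn went the other way. Its brighter probe had a signal of 745 ± 74.5 in control and 8.32 ± 1.58 after busulphan, 77.5-fold lower (log2 -6.28, software error 0.31), and 25 genes had a lower ratio. The busulphan spot counted as well above background but stood close to the faintest signal so scored on that array, 6.26. The dimmer probe had 15.8 ± 2.37 in control and 1.52 ± 1.49 after busulphan, where it was not well above background, and the gene was at least 2.18-fold lower. Both probes were thus lower after busulphan, and the size of the fold rests on the brighter one, with the median over both at log2 -3.70 and the brighter probe at -3.43 with normexp.

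Slc4a1 was dim on both arrays, with signals of 24.9 ± 2.99 in control and 7.50 ± 1.56 after busulphan. It was 2.87-fold lower (log2 -1.52, software error 0.35). The raw spot means were 50.4 and 31.6 over local backgrounds of 19 and 16.5. With normexp correction the log2 ratio was -0.12, within 2-fold. The normexp offset of 50 exceeds both signals, so a 2-fold call could not arise there. That value therefore cannot decide whether the call holds, and the call rests on dim spots.

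**Figure D1:**
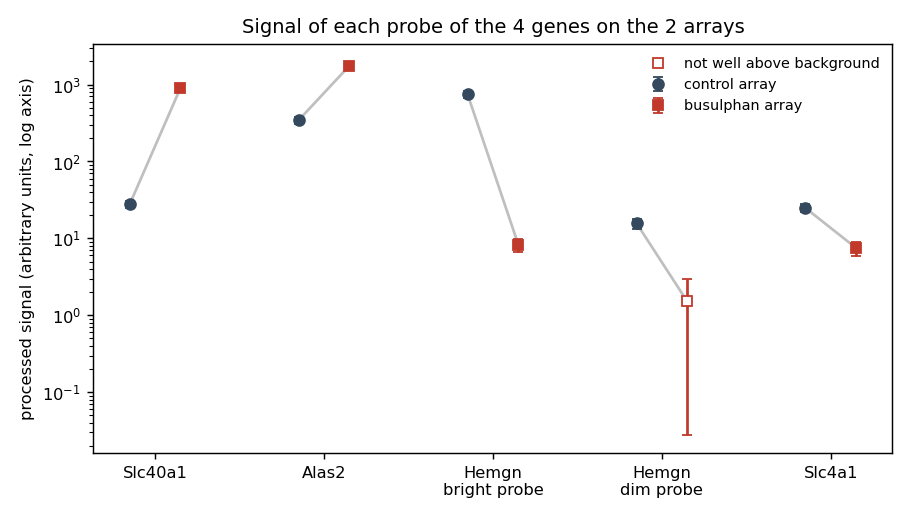
Processed signal (log axis, arbitrary units) of each of the 5 probes on the control array (circles) and the busulphan array (squares), with the software error of the spot as bars, 1 array per group. The open square is not well above background. Slc40a1 and Alas2 lie higher on the busulphan array, at 900 and 1754, and both Hemgn probes and Slc4a1 lie lower.

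**Figure D2:**
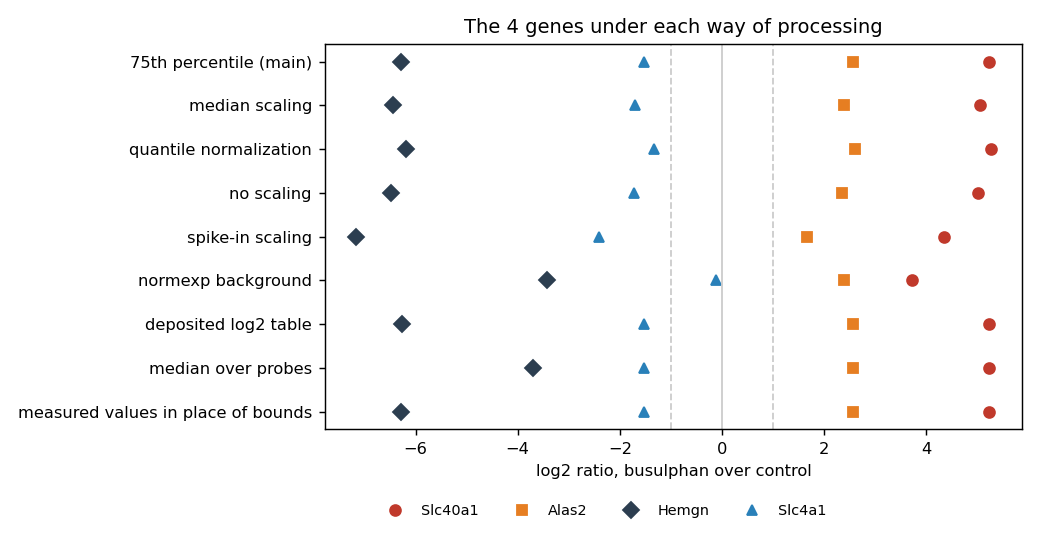
Log2 ratio of busulphan over control for the 4 genes under the main processing (75th percentile) and 8 others, with dashed lines at 2-fold. Every gene keeps its direction in each, though not every setting could change each gene. Slc4a1 lies inside the 2-fold lines with normexp background correction, at -0.12, a value for which no software error was computed.

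The wider iron pathway was read from a list of transport, storage and control genes, of which 27 were compared. The 2-fold rule called 14 of them higher, Slc40a1 included, and 8 lower, and 5 lay between. The list's median log2 ratio was 1.21, against 0.07 over all genes. With the arrays scaled to spike-in control probes instead, which lowers the median of all genes by 0.88, the list with Slc40a1 had 6 higher and 11 lower. The counts over all 9441 genes were then 1525 higher and 4382 lower, against 2952 and 2784 in the main values. Hamp, which encodes the hormone that removes ferroportin from the cell surface, and the ferritin genes Fth1 and Ftl1 were not analysed here.

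Genes of iron uptake stood on both sides. Trf, the serum iron carrier transferrin, had signals of 89.5 and 612 and was 7.89-fold higher. Its receptor Tfrc went from 134 to 289, 2.51-fold higher, while the second receptor Tfr2 went from 331 to 145, a log2 ratio of -0.98 that passed 2-fold with median scaling, at -1.15. Slc11a2, the ferrous iron importer, was 2.47-fold higher by its brightest probe, and its other probes gave log2 ratios of 1.70 and 4.58. Tfrc and Slc11a2 were within 2-fold with spike-in scaling, at 0.44 and 0.42. Steap3, the endosomal ferric reductase that serves the transferrin cycle, was 3.09-fold higher at dim signals of 22.4 and 59.8, and within 2-fold with normexp or spike-in scaling. Slc39a8, a carrier that imports zinc and iron, had a log2 ratio of -2.75, and -2.15 with normexp.

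Iron oxidation, sensing and hormone control held members in both directions. The copper ferroxidase Cp, which loads iron onto transferrin after export, went from 1074 to 4240, 4.56-fold higher, and the related Heph had a log2 ratio of 1.00 just short of 2-fold. Hfe, a sensor of transferrin iron, was 10.8-fold higher, with its other probe at log2 4.52. Aco1, the iron regulatory protein that doubles as cytosolic aconitase, went from 621 to 3415, 6.36-fold higher, and Ireb2, the other such protein, had log2 ratios of -1.80 from its brightest probe and -0.53 from the other.

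At the low end of the list, Hjv lay beside Hemgn in ratio. Hjv, the hepcidin co-receptor hemojuvelin, went from 635 to 6.80, 80.8-fold lower. Its busulphan signal, like that of Hemgn, stood close to the faintest signal scored as well above background, and its log2 ratio was -6.34 in the main values and -3.38 with normexp. Ftmt, the mitochondrial ferritin of testis, went from 5825 to 145, 34.8-fold lower, with a second probe at log2 -5.21. Meltf, melanotransferrin, was 28.9-fold lower (log2 -4.85, and -4.00 with normexp), and Ncoa4, the receptor that delivers ferritin for breakdown, was 5.74-fold lower.

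In heme synthesis, Alas1, the housekeeping form of the first enzyme, had signals of 10870 and 9647 and a log2 ratio of 0.04, whereas Alas2 stood at 2.56 as given above. The sign of the small Alas1 ratio turned with median, spike-in or no scaling, and its second probe gave -0.12. Alad, the enzyme after these, went from 2609 to 16520, 7.32-fold higher, and Cpox, near the end of the path, from 63.2 to 261, 4.78-fold higher (log2 2.26, and 1.65 with normexp). Fech (ferrochelatase, which inserts the iron) and Urod were higher, with log2 ratios of 1.14 and 1.11. Both were within 2-fold with spike-in scaling, at log2 0.26 and 0.23, and with median scaling, at 0.97 and 0.94, and the second Fech probe gave 0.41. Uros had a log2 ratio of -0.87 and Ppox of 0.85, and Ppox turned to -0.04 with spike-in scaling.

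**Figure D3:**
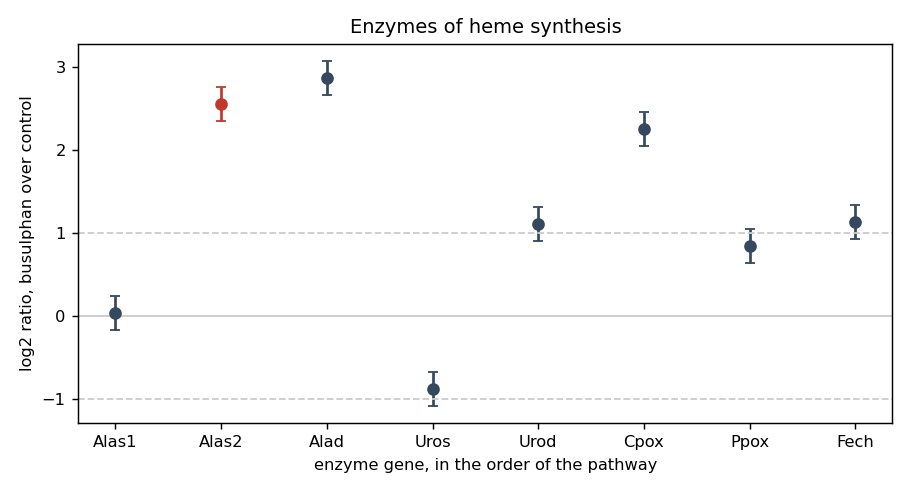
Log2 ratio of busulphan over control for 8 enzyme genes of heme synthesis in pathway order, with the software error as bars and dashed lines at 2-fold, 1 array per group. Alas2, drawn in red, and Alad are highest, at 2.56 and 2.87, Alas1 lies at 0.04 and Uros lies lowest, at -0.87.

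Among 13 heme synthesis genes other than Alas2 the rule called 6 higher and 3 lower, and their median log2 ratio was 0.93. With Alas2 the split was 7 to 3, and it was 5 to 4 with median or no scaling and 4 to 4 with spike-in scaling. Over all 9441 genes, 2952 were higher and 2784 lower in the main values. The scalings moved these counts as well, to 2637 and 3047 with median scaling, 2573 and 3117 with no scaling, and 1525 and 4382 with spike-in scaling. The mitochondrial membrane protein Tspo, which binds porphyrins and is also used in steroid synthesis, was 7.26-fold higher. The lower members were Slc25a39, a mitochondrial carrier, at 12.7-fold, Clpx, the mitochondrial unfoldase that activates the first enzyme, at 4.60-fold and the porphyrin transporter Abcb6 at 3.87-fold. A dim second Clpx probe gave a log2 ratio of -0.47.

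Genes that carry, break down or scavenge heme had a higher median than the other pathway lists, 2.05 over 15 genes, with 11 higher and 3 lower. Hmox1, the inducible heme oxygenase that opens the heme ring, went from 777 to 2587, 3.85-fold higher. Its constitutive partner Hmox2 moved oppositely, from 50480 to 5331, 8.19-fold lower. The biliverdin reductases Blvrb and Blvra, which take the next step, were 4.68-fold and 3.55-fold higher, with Blvra within 2-fold under spike-in scaling, at 0.95. The heme and folate transporter Slc46a1 was 12.6-fold higher, the heme-sensing repressor Bach1 6.54-fold and the heme transporter Flvcr2 5.28-fold higher. With normexp the log2 ratio of Slc46a1 was 3.01 against 3.65, and that of Bach1, dim in control, was 1.81 against 2.71. Ambp, whose product includes a heme-binding plasma protein, was 35.4-fold lower at a dim busulphan signal of 11.8, with a log2 ratio of -5.15 in the main values and -2.81 with normexp. The exporter Abcg2 was 3.55-fold lower, with its second probe at log2 -1.80. Cd163, the macrophage receptor for hemoglobin, was not well above background on either array, with signals of 5.24 and 6.08.

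Iron-sulfur cluster assembly is the other main use of mitochondrial iron. The rule called 1 of 11 genes higher and 4 lower, and the median log2 ratio was -0.11. Quantile normalization gave 1 higher and 2 lower with a median of 0.07, and spike-in scaling gave 0 and 5. Fdxr, the reductase that feeds electrons to the assembly and to steroid synthesis, was 3.42-fold higher and within 2-fold with spike-in scaling, at 0.89. Bola3, Nfu1 and Nubp1 were 3.23-fold, 2.60-fold and 2.38-fold lower, Glrx5 had a log2 ratio of 0.57 and Ciao1 of 0.24, both below 0 with spike-in scaling, and Nubp1 was within 2-fold with quantile normalization. Across the iron and heme lists 33 of 67 genes were higher and 18 lower, Slc40a1 and Alas2 included. With spike-in scaling 19 were higher and 23 lower. The shares over all 9441 genes were 31.3% higher and 29.5% lower, and with spike-in scaling 1525 genes were higher and 4382 lower.

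Hemgn was read beside 24 other genes of erythroid transcription and cytokine reception, of which 7 were higher, 8 lower and 9 within 2-fold. Their median log2 ratio was 0.11, and of all genes compared 31.3% were higher and 29.5% lower. With Hemgn included the median was also 0.11, and it turned to -0.06 with median scaling, -0.07 with quantile normalization, -0.10 with no scaling and -0.77 with spike-in scaling, where 5 were higher and 12 lower against 7 and 9 in the main values. Gata1, the master factor of red cells that Sertoli cells also express, went from 129 to 1619, 14.6-fold higher. Gata2, the related factor of earlier progenitors, stood opposite, from 2420 to 149, 14.0-fold lower by its brightest probe, with its other probe at log2 -1.02. Lmo2, a bridging factor of the same complex, was 5.34-fold higher and the cytokine receptor kinase Jak2 5.75-fold higher, with its other probe at log2 2.63. Klf1, the red cell factor that drives adult globin, went from 67.2 to 21.8, 2.67-fold lower, and was within 2-fold with normexp, at log2 -0.44. Epor, the erythropoietin receptor, went from 513 to 52.6, 8.44-fold lower. With normexp the log2 ratio of Lmo2 was 1.74 against 2.42, that of Epor -2.19 against -3.08 and that of Bcl11a -2.42 against -4.02. Sox6 and Bcl11a, repressors of embryonic globin, were 18.6-fold and 16.3-fold lower. The second Bcl11a probe, dim after busulphan, gave a bound of -4.64 on the log2 ratio, and of the 3 other Sox6 probes 2 were within 2-fold, at -0.50 and -0.79.

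Slc4a1 was read beside 26 other red cell genes, of which 7 were higher and 9 lower, against 31.3% and 29.5% of all genes. With Slc4a1 the split was 7 to 10, and it was 4 to 15 with spike-in scaling, 6 to 12 with no scaling and 2 to 7 with normexp, whose median was 0.00 against -0.73. The globins were near the 2-fold line in the main values and past it, on the lower side, with spike-in scaling. Hba-a1 went from 448 to 227 (log2 -0.77) and Hba-a2 from 551 to 212 (log2 -1.17, and -0.98 with normexp). Spike-in scaling gave -1.65 and -2.05 for these alpha-globin genes and -1.62 for beta-globin. The embryonic globin Hbb-y was dim, at 29.1 and 10.3, with a log2 ratio of -1.29, -2.17 with spike-in scaling and -0.22 with normexp. In the main values, the beta-globin probes, named Hbb-b1 in the files and now Hbb-bt, gave 4 log2 ratios between -0.76 and -0.62. Ank1, which anchors band 3 to the membrane skeleton, was dim, with log2 ratios of 0.52 and 0.46 from 2 probes and bounds of -1.51 and -2.60 from the others, whose busulphan spots were not well above background. The first of these ratios turned to -0.37 with spike-in scaling. Epb42, the band 3 partner protein 4.2, and Rhag were not well above background on either array, beside measurable globin signal.

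Other members of the red cell list had larger ratios. Car2, a carbonic anhydrase that many tissues use, was 33.0-fold lower (log2 -5.04, and -4.04 with normexp), and Tmod1, an actin capping protein, had log2 ratios of -4.22 from its brightest probe and 0.68 from a dim one. Prdx2, a peroxide-removing enzyme that is not confined to red cells, went from 4129 to 30540, 8.55-fold higher. Kel was 4.53-fold higher and Icam4 at least 4.45-fold, both dim and both within 2-fold with normexp. Over both erythroid lists 14 of 52 genes were higher and 19 lower, Hemgn and Slc4a1 included. With spike-in scaling 9 were higher and 27 lower. Of all 9441 genes, 31.3% were higher and 29.5% lower in the main values. With spike-in scaling 1525 of them were higher and 4382 lower, so the erythroid counts moved the same way as those of all genes.

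**Figure D4:**
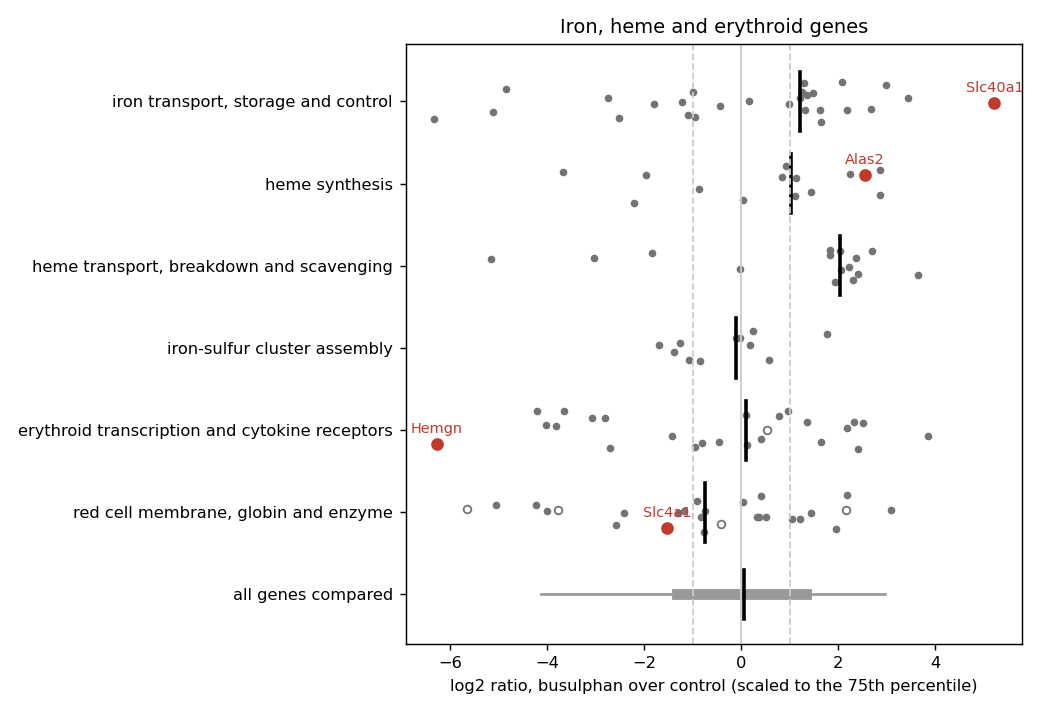
Log2 ratio of busulphan over control for each gene of the 6 lists (points, with bounds open), the list median (black bar) and, at the bottom, all genes compared (thick bar from percentile 25 to 75, line from percentile 5 to 95). Slc40a1 and Hemgn, in red, stand at opposite ends at 5.22 and -6.28, and the list of heme transport, breakdown and scavenging has the highest of the 6 medians, at 2.05.

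Markers of other cells differed between the preparations as well. In bulk RNA, fewer cells of a type and less RNA per cell cannot be told apart. Among 21 macrophage markers the rule called 14 higher and 3 lower, and their median log2 ratio was 2.95. The lower ones were Aif1, a calcium-binding protein of macrophages, and the receptor genes Fcgr3 and Msr1, both 13.3-fold lower. Aif1 was saturated in control, 62720 against 1230 and at least 44.1-fold lower, and its unsaturated probe went from 21420 to 315. The summed signal of all 21 was 66730 in control and 10400 after busulphan, and without Aif1 it was 4005 and 9169, so the direction of the sum rests on that gene. Signals of different probes cannot be compared, so neither sum measures the amount of macrophage RNA. Csf1r, the receptor that defines the macrophage lineage, went from 52.1 to 380, with other probes at log2 1.74 and -0.96 and the main one at 2.24 with normexp against 3.08, while Adgre1 went from 415 to 367. Among 20 Sertoli markers it called 17 higher and 0 lower. Their median was 3.06, and Sox9, a factor of Sertoli identity, went from 172 to 5173. Most members of these lists stood high in the same library as Slc40a1, Trf and Gata1, and their part in those values was not tested.

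Spermatid markers stood low in the same library as Hemgn, Hjv and Ftmt. All 20 were called lower after busulphan (19 with quantile normalization), with a median log2 ratio of -5.57, 9 of them bounds because the control spot was saturated, as for Prm1 at 62620 against 15270. The summed signal of the other 11 was 219900 in control and 3333 after busulphan, a sum over unlike probes that does not measure the amount of spermatid RNA. Among 14 markers of other blood cells the rule called 2 higher and 8 lower, and their median was -1.23 in the main values and -0.25 with normexp. Among 16 endothelial markers it called 3 higher and 2 lower, and 2 and 8 with spike-in scaling. The part of these cell types in the values of Hemgn and Slc4a1 was not tested.

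**Figure D5:**
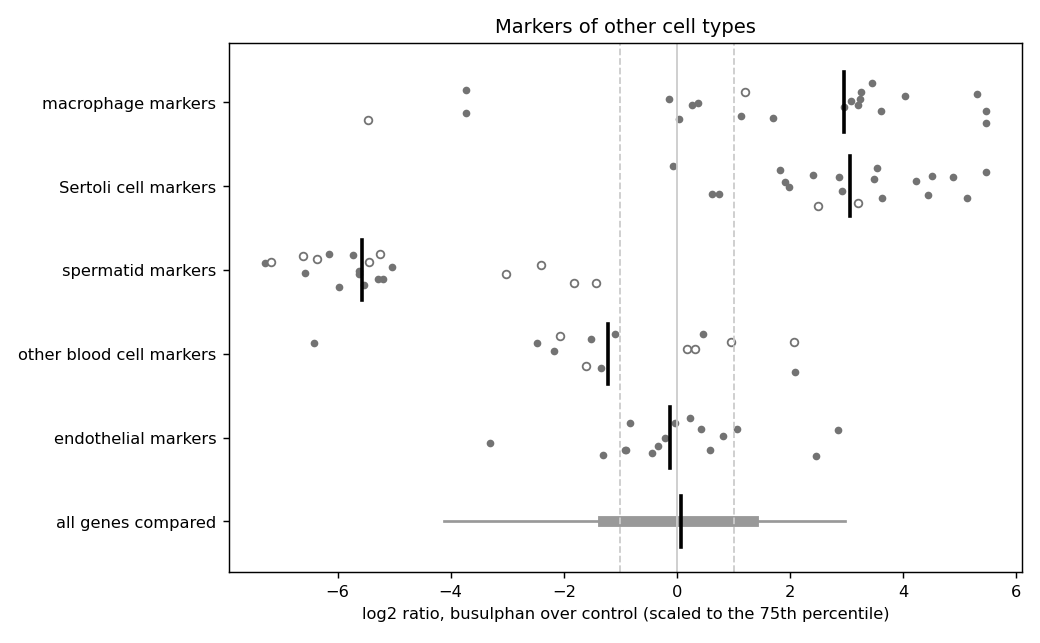
Log2 ratio of busulphan over control for markers of 5 other cell types (points, with bounds open), the list median (black bar) and, at the bottom, all genes compared (thick bar from percentile 25 to 75, line from percentile 5 to 95). Macrophage and Sertoli medians lie at 2.95 and 3.06 and the spermatid median at -5.57.

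The genes with the ratio nearest to each of the 4 were also taken, from the 2 arrays and without regard to function. Slc40a1 at log2 5.22 lay next to Ctnnal1 (5.19), Rln1 (5.15) and Trem2 (5.30). Alas2 lay within 0.001 of Tmprss13 and Mospd2. Hemgn at -6.28 lay next to Klk1 (-6.28), Capza3 (-6.24) and Kcnip2 (-6.24), and Slc4a1 at -1.52 next to Gckr, Baz2a and Sycp3.

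GATA factors, such as Gata1 and Gata2, bind a short sequence in the promoters of red cell genes, so the 250 bases before the transcription start were searched on both strands for AGATAA or AGATAG or TGATAA or TGATAG. RefSeq promoter sequences on GRCm38.p6 were at hand for Alas2 and Hemgn, 2 of the 4 genes, and are shown with the match in capitals, on the strand of the gene.
Alas2, chrX:150547167-150547416, plus strand: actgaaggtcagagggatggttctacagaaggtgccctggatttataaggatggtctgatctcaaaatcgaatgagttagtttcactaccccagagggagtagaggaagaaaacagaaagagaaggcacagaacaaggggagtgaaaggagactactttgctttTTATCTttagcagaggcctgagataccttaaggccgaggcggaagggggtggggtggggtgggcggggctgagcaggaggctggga
Hemgn, chr4:46404184-46404433, minus strand: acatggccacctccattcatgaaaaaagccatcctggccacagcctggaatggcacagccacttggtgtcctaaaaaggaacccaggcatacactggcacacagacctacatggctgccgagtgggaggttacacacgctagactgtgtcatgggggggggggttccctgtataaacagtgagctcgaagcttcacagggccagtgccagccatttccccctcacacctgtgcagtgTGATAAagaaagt
Alas2 held 1 match, whose first base lies at -86 from the start, and Hemgn held 1 at -13. Any of the 4 spellings occurred in 26.5% of 32851 such windows. CCACACCC, a box bound by factors of the Klf1 family, was in neither, and in 3.20% of all windows. A match says only that the letters are present, and the 2 genes with a match differed in opposite directions.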

How the data were processed

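Per the file headers, the deposited intensity values were written by Agilent Feature Extraction 11.5.1.1, with a spatial background fit, a multiplicative detrend and surrogate values for the dimmest spots. The deposited log2 table equals log2 of the processed signal minus 10.03 for control and 9.82 for busulphan, with medians of -2.94 and -2.77. Its direction and centring follow from that match.

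Of 15208 non-control probes, 12302 (80.9%) were well above background in control and 12064 (79.3%) after busulphan, and 106 and 18 were saturated. The number of arrays limits precision, and the median software error of a log2 ratio was 0.20. Both arrays share 1 scan time. The 4 outlier probes were left out. Probes well above background on neither array were dropped, and each gene was read from the remaining probe of highest mean. Bounds set the bright array against the higher of the dim probe's signal and the lowest signal well above background (7.50 in control, 6.26 after busulphan). Of the 9441 genes, 1026 stood at such a bound, saturated spots included, and 8 whose bound pointed the other way were set to 0. Symbols came through accessions from a GRCm38.p6 table for 13297 probes, and 1907 kept the file's name.

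With 1 array per group no test was run. The genes named were every chosen gene, the 3 highest and 3 lowest of each pathway list, a fixed set of well-known genes and the 3 genes nearest in ratio, of which a few are left out of the text. Heme enzymes beyond these, Steap3, Slc39a8, Hba-a2, Hbb-y, Gata2, Fcgr3, Msr1, Cp, Heph, Ncoa4, Blvra, Blvrb, Epb42, Rhag, Adgre1 and Aif1 were named after their values were seen. The members and lists were chosen with earlier results of these data known. Python 3.11.15, pandas 2.3.3 and limma 3.58.1 (normexp, offset 50) were used.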

Additional observations from a re-analysis of the deposited data

How the results depend on the processing

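The 4 chosen genes kept their direction under all 8 alternatives, with log2 ratios of 3.72 to 5.26 for Slc40a1, 1.67 to 2.60 for Alas2, -7.16 to -3.43 for Hemgn and -2.40 to -0.12 for Slc4a1. Some alternatives could not change them. Measured values in place of bounds left all 4 as they were, and the median over probes could move only Hemgn. The deposited log2 table differs from the main values by a constant per array. The software error of 0.35 for Slc4a1 belongs to its main ratio. No such error was computed for its normexp value of -0.12, which the offset shrinks, so how firm the sign is there was not tested. Scaling to 6 spike-in probes gave 4.34, 1.67, -7.16 and -2.40, with 1525 of all genes higher and 4382 lower, 19 iron and heme genes higher and 9 erythroid genes higher. The median ratio of all genes shifted by -0.88 with that scaling, by -0.17 with median scaling and by -0.21 with no scaling, where Alas2 was at 2.35. Normexp background correction gave 3.72 for Slc40a1, -3.43 for Hemgn and -0.12 for Slc4a1, with 9 erythroid genes higher. The median over probes gave -3.70 for Hemgn. A 4-fold threshold, which by construction calls fewer genes, gave 1360 higher and 1674 lower over all genes, 18 higher and 9 lower iron and heme genes, and 8 higher erythroid genes. With a 1.5-fold threshold, other filters on dim probes, quantile normalization or the deposited log2 table, the counts over all genes, iron and heme genes and erythroid genes stayed within 1.5 times the main ones. Counts of single lists moved more: quantile normalization gave 2 lower iron-sulfur and 4 lower endothelial genes, the 1.5-fold threshold 5 higher and 5 lower endothelial genes, and a filter for signal on both arrays 1 higher gene among other blood cell markers. The moves with another threshold follow by construction. So do those with spike-in, median or no scaling, which shift every measured ratio by 1 constant. The cause of the other moves was not tested. No paired analysis was possible because each group holds 1 array. Signal over background limits Slc4a1 and the dimmer Hemgn probe most.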

Other observations

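Among the blood cell markers, the T cell receptor chain gene Cd3d went from 3467 in control to 35.1 after busulphan, 85.5-fold lower by its single probe (log2 -6.42, and -5.06 with normexp), while Cd3e, which belongs to the same receptor complex, had dim signals of 22.1 and 26.4. Both were picked out after their values were seen. Ptprc, the common leukocyte surface gene, went from 31.2 to 115, 4.26-fold higher, with its other probe at log2 0.70 and its main one at 1.17 with normexp against 2.09. The endothelial receptor Robo4 went from 1573 to 9796, 7.20-fold higher, while 11 of all 16 endothelial markers lay within 2-fold in the main values.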
